A study of Mus musculus with 13 samples.

Results

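Expression of 9 genes of the classical and alternative complement pathways, *C1qa*, *C1qb*, *C1qc*, *C1ra*, *C1s1*, *C2*, *C3*, *C4b* and *Cfb*, was examined in gluteal white adipose tissue (WAT), a posterior subcutaneous fat depot. They were taken by symbol from the 34419 genes counted, all 9 were found, and all 9 passed the filter on low counts, as did 17779 genes in all. RNA-seq was performed on tissue of 13 mice, 7 kept at 22°C and 6 kept at 29°C since birth, and all were taken at 13 weeks of age. Both groups were male C57BL/6J mice that were bred in thermal chambers, had their posterior hair removed after weaning, and were housed singly with minimal bedding and without nesting material. No group without hair removal is compared here, so the temperatures were compared in animals with reduced insulation on both sides. Each mouse gave 1 library, numbered by its replicate.

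Complement is a set of plasma and tissue proteins that tag particles, damaged cells and microbes for uptake or lysis. In the classical pathway, C1q binds its target and carries the proteases C1r and C1s, which cleave C4 and C2 into a C3 convertase, whereas the alternative pathway builds its own C3 convertase from C3 and factor B with the help of factor D. The liver makes much of the circulating protein, and within fat, adipocytes, fibroblasts and macrophages are known sources of single components, factor D (adipsin) being a classical product of adipocytes.

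None of the 9 components differed between temperatures at P-adj below 0.1 in edgeR's quasi-likelihood test with Benjamini-Hochberg adjustment over 17779 genes, in which 1.94% of all genes were called (1.21% lower and 0.731% higher at 22°C). Fitted values were lower at 22°C for 8 of the 9, against 48.4% of all genes, and the median of their log2 fold changes was -0.24, against 0.01 over all genes. The complement protease gene *C1s1* was the 1 component with an unadjusted p below 0.05 (0.00544), a level passed by 18.5% of all genes (8.19% in the same direction, lower at 22°C), and its P-adj was 0.138. The ranges of the temperatures overlapped for all 9, whereas 1.24% of all genes had ranges that did not overlap (0.748% with 22°C below and 0.495% with 22°C above). Their summed level was between 3136 and 7175 CPM (counts scaled to a common library size), with a median of 4909, at 22°C and between 5568 and 7003 CPM, with a median of 6152, at 29°C. The annotated strand partners and close copies of several components limit their counts, as given with each gene. These are bulk tissue values, in which fewer cells of a type and less RNA per cell cannot be told apart.

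Total counts were between 22356637 and 25245785 per library, and 5 libraries at 22°C (replicates 1 to 5) formed a cluster of their own with lower totals, so that 8 libraries remained at similar depth. A count of 0 allows up to 3 counts, which is 0.113 to 0.158 CPM and far below every component. The 2 libraries with the most skeletal muscle RNA were 22°C replicates 7 and 1, with summed CPM of 12 muscle markers of 79620 and 57655, against 89.8 to 12135 in the other libraries. The TMM factors of these 2 libraries, 0.879 and 0.850, were the smallest, and their link to muscle RNA was not tested. Among the other libraries, the factor was 0.951 in 29°C replicate 6, with 89.8 CPM, and 1.05 in 22°C replicate 4, with 12135 CPM. In 22°C replicate 1, all 9 components had their lowest CPM of the 13 libraries, which held for 15.6% of all genes tested. Results are therefore also given without that library, and its part in them was not tested otherwise.

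**Figure D1:**
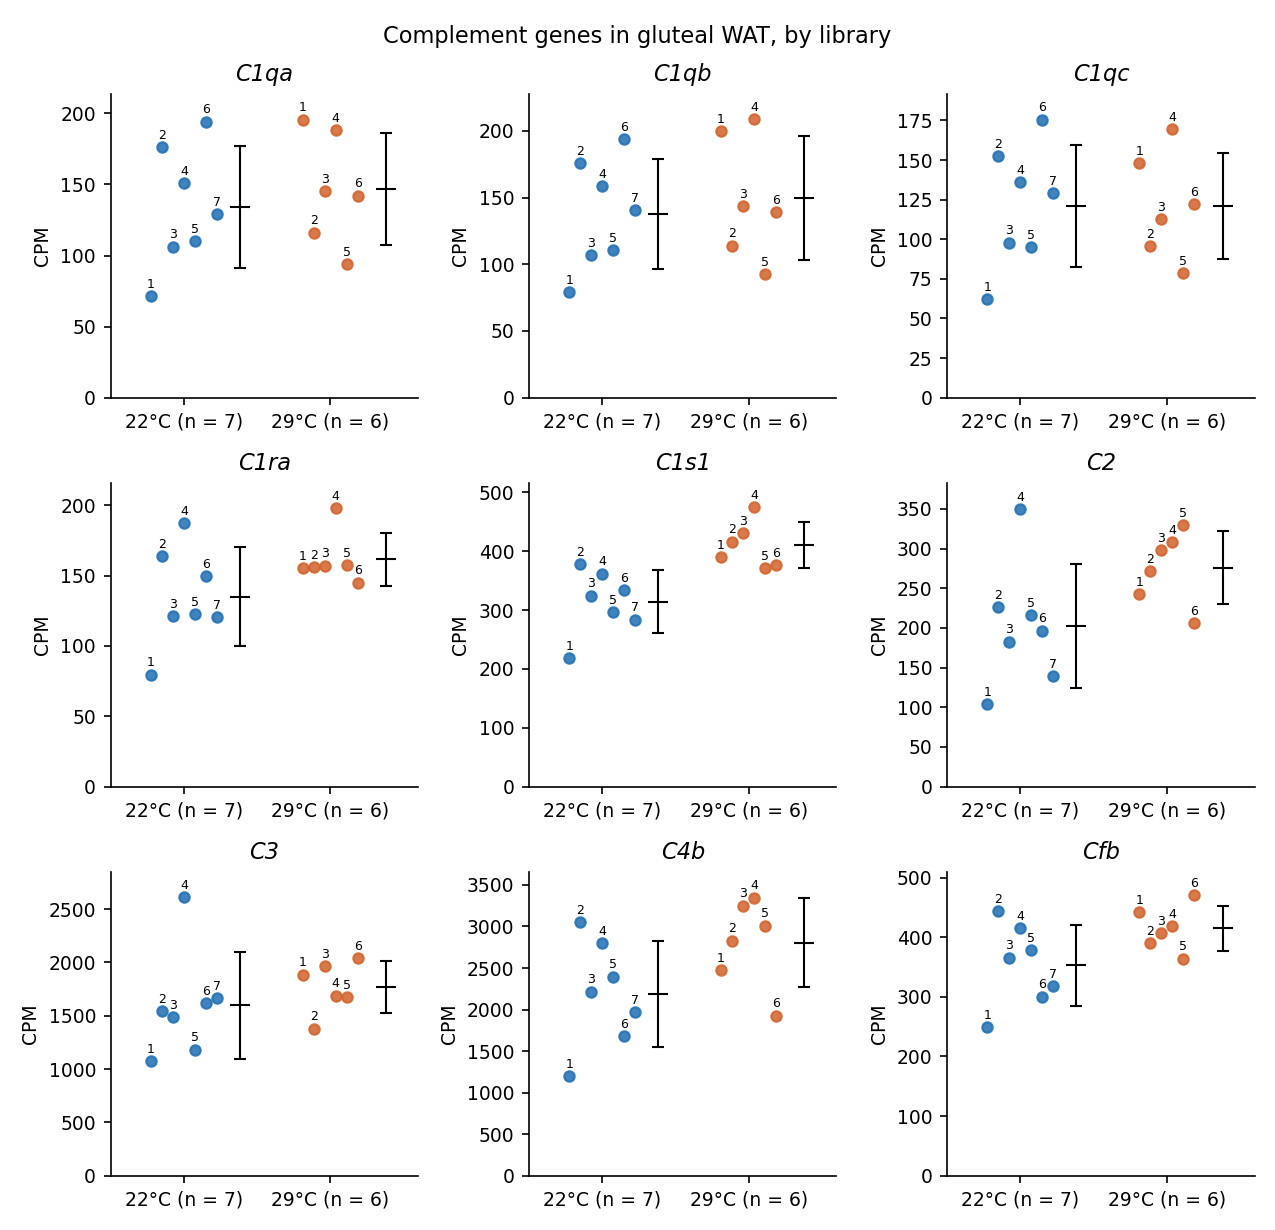
CPM (vertical axes, from 0) of each of the 9 components in each library, with 7 mice at 22°C in blue and 6 at 29°C in orange. Small numbers are replicates, and the black mark and bar are the mean ± SD. The 22°C points reach lower than every 29°C point in all 9 panels, where 22°C replicate 1 lies, and the groups overlap in each.

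The 3 chains of C1q, the recognition molecule that is made largely by macrophages, had fitted differences smaller than the spread between mice. *C1qa* (ENSMUSG00000036887.6) was at 71.5 CPM in the lowest, 129 in the median and 194 in the highest library at 22°C, and at 94.0, 144 and 196 CPM at 29°C. *C1qb* (ENSMUSG00000036905.9) was between 79.0 and 194 CPM, with a median of 140, at 22°C and between 92.7 and 209, with a median of 141, at 29°C. *C1qc* (ENSMUSG00000036896.6) was between 62.0 and 175 CPM, with a median of 129, at 22°C and between 78.8 and 170, with a median of 117, at 29°C. Replicate 6 was the highest library of all 3 chains at 22°C and replicate 5 the lowest of all 3 at 29°C, so the spread within each temperature was shared by the chains. Mean levels of *C1qa* were 134 ± 42.8 (SD, n = 7) and 147 ± 39.6 CPM (n = 6), a log2 fold change at 22°C of -0.13 (95% confidence interval -0.63 to 0.37). The log2 fold change was -0.12 for *C1qb* (-0.62 to 0.39) and 0.00 for *C1qc* (-0.51 to 0.51), and none passed the test (edgeR P-adj = 0.797, 0.819 and 1). The intervals therefore reach well to both sides of 0. The sign of *C1qa* and *C1qb* turned when the total-count cluster was a covariate, to 0.14 and 0.16, and *C1qc* was then at 0.33.

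Within each temperature, the 3 C1q genes were counted in similar proportion from library to library. The ratio of *C1qa* to *C1qb* counts was 0.967 ± 0.0416 (SD, n = 7) at 22°C and 0.991 ± 0.0463 (n = 6) at 29°C, and that of *C1qa* to *C1qc* was 1.11 ± 0.0570 and 1.22 ± 0.0786. The latter ratio was between 0.999 and 1.16 at 22°C and between 1.11 and 1.32 at 29°C, and this difference between temperatures was not tested. The proportions thus varied far less between libraries than the level of each chain did. Across the 13 libraries, after the mean of each temperature was subtracted from log2 CPM, the chains correlated with each other at Pearson's r of 0.983 to 0.99. These values describe genes counted in the same libraries, which differ in tissue composition and depth, and carry no p.

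The 3 genes lie next to each other on chromosome 4, and 2 of them have an entry among the RefSeq promoters used here (build GRCm38.p6), which are shown because the chains move together. The 250 bases before each start site are given 5′ to 3′ on the gene's strand, with matches of AGGAAG or its reverse complement CTTCCT, a core that ETS factors such as the myeloid factor PU.1 bind, in capitals. *C1qa* has no entry.
*C1qb* (chr4:136886201-136886450, minus strand): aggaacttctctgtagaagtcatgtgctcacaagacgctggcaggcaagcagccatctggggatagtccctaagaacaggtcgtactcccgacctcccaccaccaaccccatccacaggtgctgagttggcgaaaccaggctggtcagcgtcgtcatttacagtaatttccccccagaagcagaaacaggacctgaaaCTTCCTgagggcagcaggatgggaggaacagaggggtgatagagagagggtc
*C1qc* (chr4:136892915-136893164, minus strand): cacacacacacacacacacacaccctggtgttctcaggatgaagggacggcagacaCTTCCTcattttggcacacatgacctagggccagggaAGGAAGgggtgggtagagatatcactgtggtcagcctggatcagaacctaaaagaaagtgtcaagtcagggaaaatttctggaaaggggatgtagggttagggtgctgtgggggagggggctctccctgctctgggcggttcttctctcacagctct
The match starts 52 bases before the start site of *C1qb*, and the matches start 194 and 157 bases before that of *C1qc*. The letters were chosen after these sequences were seen, and 29.5% of 32851 windows of this length hold them, so a match is a description only.

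*C1ra* and *C1s1* encode the mouse C1r and C1s proteases of the C1 complex and lie close together on chromosome 6. *C1ra* (ENSMUSG00000055172.11) was between 79.6 and 187 CPM, with a median of 123, at 22°C and between 145 and 198, with a median of 157, at 29°C. *C1s1* (ENSMUSG00000038521.18) was between 219 and 379 CPM, with a median of 325, at 22°C and between 372 and 475, with a median of 403, at 29°C. The highest 22°C library of *C1s1*, replicate 2, exceeded the lowest 29°C library by a small margin, so the ranges just overlapped. The mean of *C1s1* was 314 ± 53.7 CPM (SD, n = 7) at 22°C and 410 ± 39.2 (n = 6) at 29°C, which is a log2 difference of -0.38 ± 0.12 (SE, interval -0.64 to -0.13, edgeR P-adj = 0.138). The mean of *C1ra* was 135 ± 35.0 and 161 ± 18.5 CPM, a log2 fold change of -0.26 ± 0.16 (SE, interval -0.61 to 0.09, edgeR P-adj = 0.406).

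*C1s1* was the component whose call depended on the tool. DESeq2's Wald test on the same counts gave a P-adj of 0.0278 for it, and called 1676 of 34358 genes with an unadjusted p. The number of genes that DESeq2 adjusted over was not recorded and may be smaller, so the share called may be larger. Over the other alternatives the P-adj of *C1s1* reached 0.366. Leaving out each mouse in turn gave log2 fold changes of -0.43 to -0.31 with an edgeR P-adj of 0.121 to 0.266. Without 22°C replicate 1, the value was -0.31 for *C1s1* and -0.16 for *C1ra*.

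The counts of *C1s1* are uncertain in part because of an antisense gene. In the GENCODE M21 annotation, all 576 exon bases of *Gm16567* lie within exons of *C1s1* on the opposite strand and cover 18.4% of them, and the strand setting of the counting is not given in the sources used here. *Gm16567* counts were 30.3% ± 0.959 (SD, n = 7) of *C1s1* counts at 22°C and 31.3% ± 0.753 (n = 6) at 29°C, so they tracked *C1s1* from library to library, and reads of the pair cannot be told apart. The close copies *C1rb* and *C1s2* held 1.03% and 0.530% as many counts as *C1ra* and *C1s1* at 22°C, and 1.18% and 0.464% at 29°C. With *C1s2* and *Gm16567* added to *C1s1*, the log2 fold change was -0.39 ± 0.12 (SE, edgeR P-adj = 0.137).

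The promoter of *C1s1*, the component with the smallest p, is shown in the same way, with the letters AGGAAG or CTTCCT in capitals. The first of its 2 annotated start sites is used, and the match starts 8 bases before it and 46 bases before the second.
*C1s1* (chr6:124542360-124542609, minus strand): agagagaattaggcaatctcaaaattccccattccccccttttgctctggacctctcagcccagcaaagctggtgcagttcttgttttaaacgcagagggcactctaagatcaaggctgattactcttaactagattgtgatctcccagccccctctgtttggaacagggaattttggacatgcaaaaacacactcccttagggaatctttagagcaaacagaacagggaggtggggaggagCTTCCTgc
Over the 300-base windows (250 bases before to 50 after the start) of the 5 components with an entry, which also include *C1ra* and *C3*, TTCNNNGAA, the palindrome that STAT factors bind, was found in 1 of 6 windows, that of *C1ra*, where it starts 32 bases after the start site, and 8.3% of all windows hold it. GAAANNGAA (interferon response), GGGNNTTCC and TTGNNNCAA were found in 0 of 6 windows, against 8.56%, 5.82% and 5.82% of all windows. The last 2 were searched for NF-kB and C/EBP, but as fixed letters at a single spacing they miss known forms of those sites and may not stand for the usual ones. Absence of these letters therefore does not show that NF-kB or C/EBP sites are absent, and the shares beside them do not measure such sites. AGGAAG or CTTCCT, letters chosen after the sequences were seen, was found in 4 of 6 windows, against 35.4% of all windows. Both overlapping windows of *C1s1* are among the 4, and *C1ra* and *C3* held no match. *C2*, *C4b* and *Cfb* have no entry.

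*C4b* and *C2*, which form the classical C3 convertase, lie with *Cfb* in the major histocompatibility complex on chromosome 17. *C4b* (ENSMUSG00000073418.5) was between 1201 and 3049 CPM, with a median of 2214, at 22°C and between 1925 and 3347, with a median of 2918, at 29°C. *C2* (ENSMUSG00000024371.15) was between 104 and 349 CPM, with a median of 197, at 22°C and between 206 and 330, with a median of 285, at 29°C. The highest *C2* library of all, replicate 4, was at 22°C, although the 22°C median lay below the lowest 29°C library. The log2 fold change was -0.36 ± 0.20 (SE, interval -0.81 to 0.09) for *C4b* and -0.45 ± 0.22 (interval -0.94 to 0.04) for *C2*, and neither passed the test (edgeR P-adj = 0.367 and 0.307). *C2* had the largest fitted difference of the 9. Both values grew in size to -0.62 and -0.71 with the total-count cluster as a covariate, without passing the test, and shrank to -0.25 and -0.34 without 22°C replicate 1.

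*C3*, the central component that both convertases cleave, was between 1072 and 2615 CPM, with a median of 1545, at 22°C and between 1380 and 2043, with a median of 1788, at 29°C. Replicate 4 at 22°C was its highest library, and the 29°C libraries lay within the range at 22°C. The mean of *C3* (ENSMUSG00000024164.16) was 1597 ± 501 (SD, n = 7) and 1772 ± 242 CPM (n = 6), a log2 fold change of -0.15 ± 0.18 (SE, interval -0.55 to 0.25, edgeR P-adj = 0.705). Leaving out 22°C replicate 4 gave -0.31, and leaving out 22°C replicate 1 gave -0.07. *Cfb* (ENSMUSG00000090231.11), which encodes factor B of the alternative convertase, was between 249 and 444 CPM, with a median of 366, at 22°C and between 364 and 470, with a median of 413, at 29°C. The fitted log2 difference was -0.24 ± 0.12 (SE, interval -0.51 to 0.04, edgeR P-adj = 0.333).

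The neighbouring genes *C2* and *Cfb* share exons with a gene that runs through both. On the same strand, *Gm20547* covers 79.5% of the exon bases of *Cfb* and 42.8% of those of *C2* in GENCODE M21. In that annotation, all 3902 exon bases of *Gm20547* lie within exons of *C2* or *Cfb*, so it has none of its own. *Gm20547* held 146% as many counts as *Cfb* at 22°C and 156% at 29°C. How reads of the 3 genes were divided is not given in the sources used here, so each of these levels is uncertain. Their sum was 1072 ± 262 CPM (SD, n = 7) at 22°C and 1334 ± 41.8 (n = 6) at 29°C, which is a log2 difference of -0.32 ± 0.15 (SE, edgeR P-adj = 0.27), and a read may be counted more than once in it. *C4a*, the close copy of *C4b*, held 0.488% and 0.435% as many counts as *C4b*, and adding it left the log2 fold change of *C4b* at -0.36.

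The libraries at 22°C were the more variable ones. For 8 of the 9 components the SD was larger at 22°C than at 29°C, as it was for 62.2% of all genes tested, and the exception was *C1qb*. Without 22°C replicate 1 the log2 fold changes of the 9 were between -0.34 and 0.11 with a median of -0.16, and none passed the test. Without the 2 libraries richest in muscle RNA the median was -0.12, again with 0 components called.

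**Figure D2:**
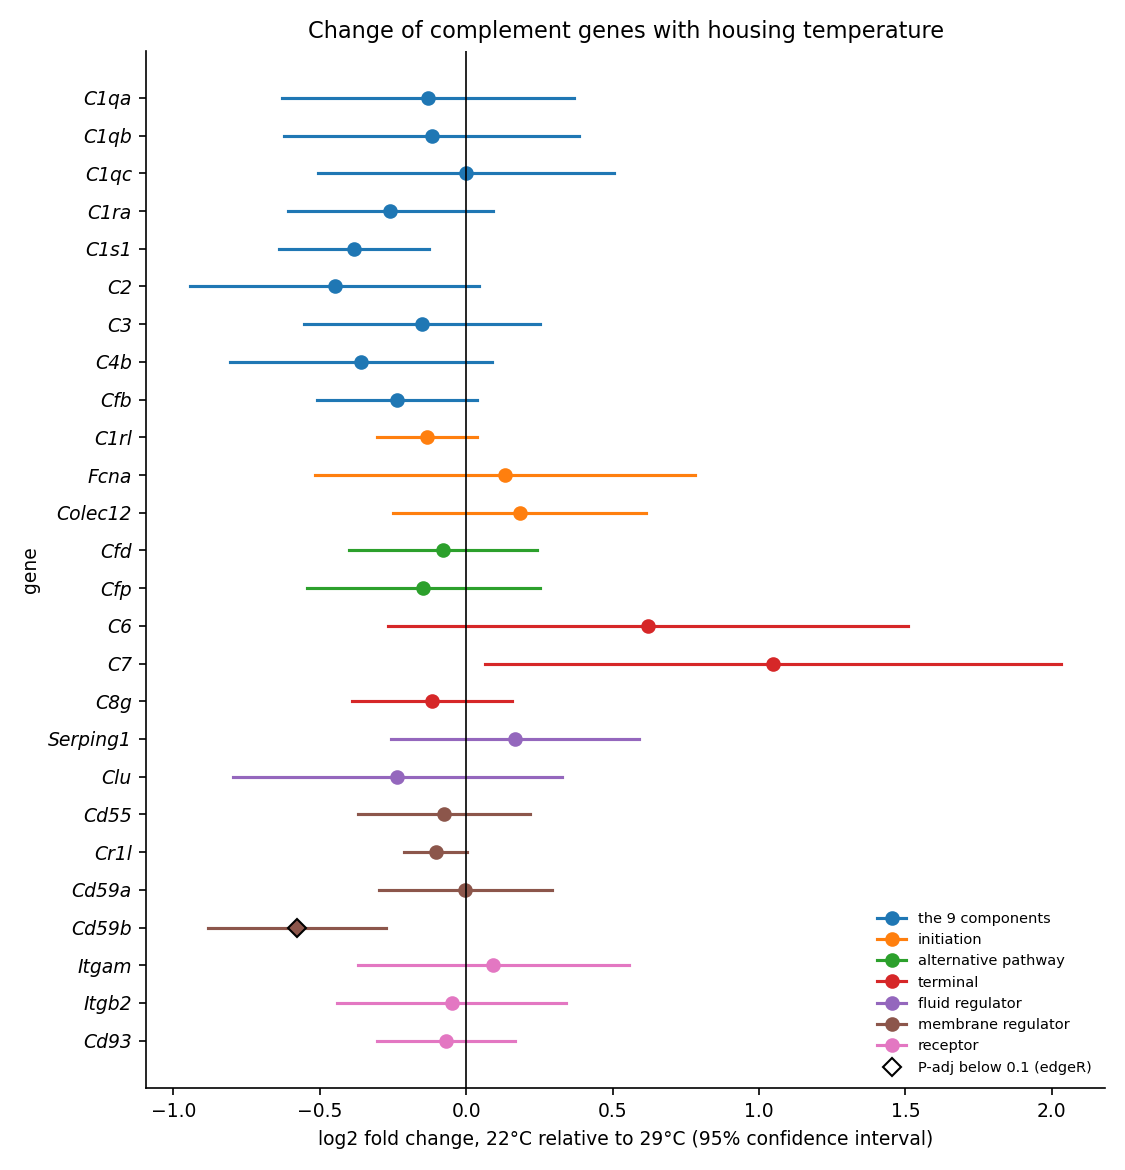
The log2 fold change at 22°C relative to 29°C (horizontal axis) of the 9 components and of 17 other complement genes, coloured by role, with lines for the 95% confidence interval from the SE and 11 degrees of freedom. The diamond marks *Cd59b*, the single gene with P-adj below 0.1, and among the 9 components the interval of *C1s1* is the one that excludes 0 before adjustment.

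Compared per length, as CPM per kb of exon, *C4b* was the most abundant of the 9 components at 29°C, at 493 ± 93.5 (SD, n = 6), and *C3* followed at 345 ± 47.1. *Cfb*, *C1qa*, *C1qb* and *C1s1* came next at 147, 141, 138 and 131 CPM per kb, and *C2*, *C1qc* and *C1ra* were lowest at 71.3, 62.7 and 54.2. At 22°C, *C4b* was at 384 ± 112 (SD, n = 7) and *C3* at 310.5 ± 97.3 CPM per kb, and the remaining order differed only among genes whose ranges overlapped. Ranges of neighbours in these orders overlapped, with the exception of *C3* and the next gene at both temperatures and of *C1s1* and *C2* at 29°C. At 22°C, the lowest library of *C3* was at 209 CPM per kb and the highest of *C1qa* at 187. At 29°C, the lowest library of *C1s1* was at 119 CPM per kb and the highest of *C2* at 85.1. Exon lengths are those of GENCODE M21 and may differ from the annotation used for counting. The counts of *Cfb*, *C2* and *C1s1* are uncertain because of the overlapping genes given above, and so are their places in these orders.

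**Figure D3:**
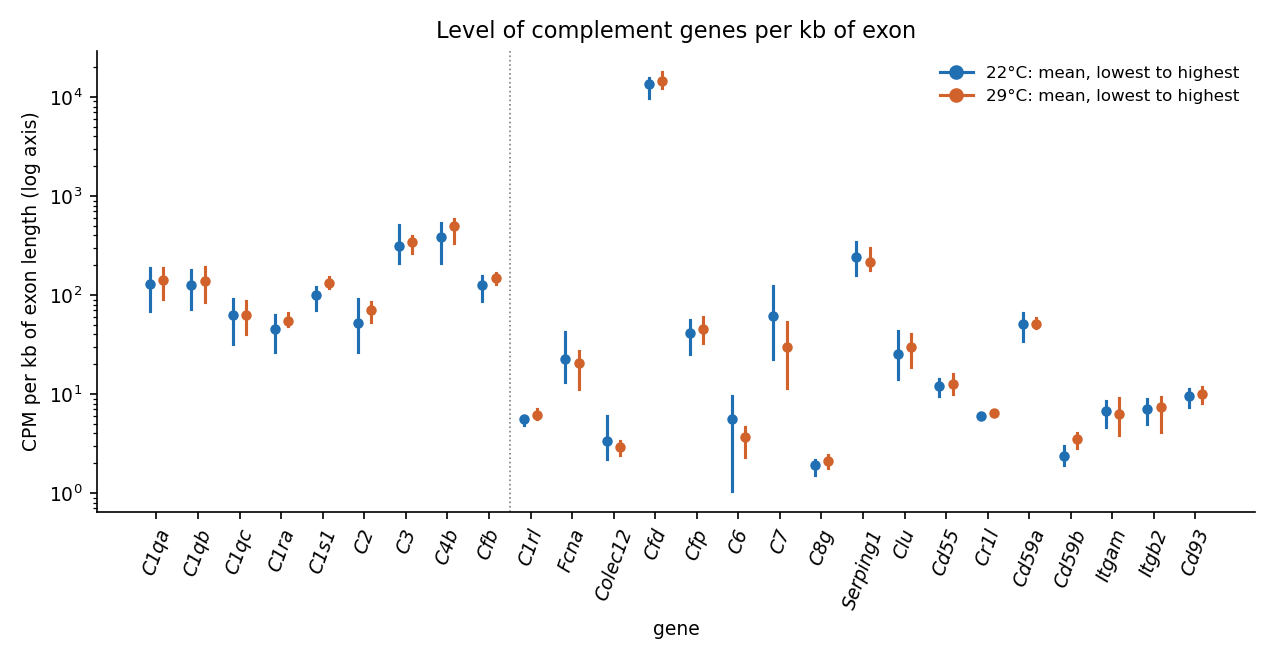
CPM per kb of exon length (log axis) of the 9 components, left of the dotted line, and of 17 other complement genes, with the mean as a point and the lowest to highest library as a line for 22°C (blue, n = 7) and 29°C (orange, n = 6). *Cfd* lies above all others and *C4b* and *C3* lead the 9 components at both temperatures.

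The 9 components correlated to differing degrees from library to library. Over the 36 pairs, Pearson's r within temperature was between 0.343 and 0.99, with a median of 0.659. *C1ra* correlated with *C1s1* at 0.929 and with *C2* at 0.869, and *C2* with *C4b* at 0.84. Values were low for C1q chains with *C4b*, at 0.343 to 0.37, and for *C3* with *C4b*, at 0.346. *C3* and *C4b*, the most abundant of the 9, had r of 0.555 over the 7 libraries at 22°C and -0.416 over the 6 at 29°C, with Spearman's rho of 0.321 and -0.314. Without the 2 libraries farthest from the median these r were -0.348 and -0.281, and r of *C1ra* with *C1s1* at 29°C went from 0.833 to -0.0757, so these values rest on those libraries. The ratio of *C4b* to *C3* counts accordingly had an SD of 0.427 around 1.41 at 22°C and of 0.424 around 1.62 at 29°C. All of these are descriptions over libraries that share 1 depot, and 22°C replicate 1, low in every component, enters each of them.

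**Figure D4:**
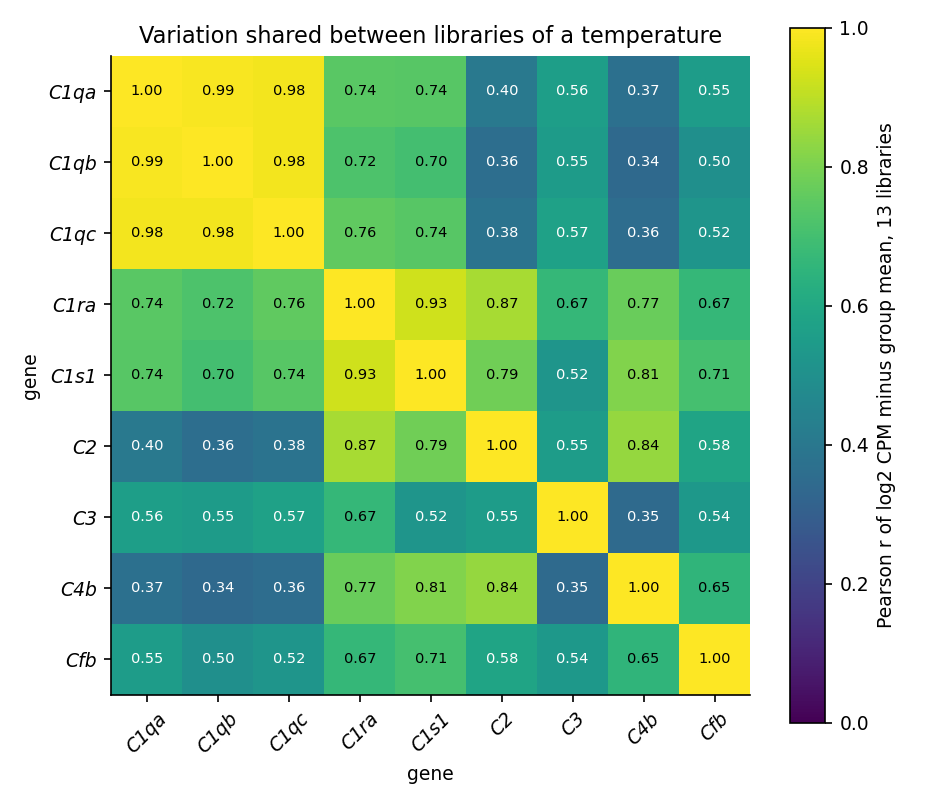
Pearson's r of log2 CPM between the 9 components over 13 libraries, after subtraction of each temperature's mean, as colour and printed value. The block of *C1qa*, *C1qb* and *C1qc* at the top left has r of 0.98 or more, and the same chains have r of 0.34 to 0.37 with *C4b*.

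The genes whose pattern was most like that of the C1q chains were *Ctsh*, a lysosomal protease, *Fcer1g*, the signalling chain of Fc receptors, and *Fcrls*, an Fc receptor-like gene, with r of 0.986, 0.986 and 0.973 over the 13 libraries. For *C1ra* and *C1s1* they were *Gpr161* (0.97), the overlapping *Gm16567* (0.969) and *Man2b2* (0.965). For *C2*, *C3*, *C4b* and *Cfb* they were *Mir700* (0.966), the overlapping *Gm20547* (0.965) and *Tbc1d10a* (0.927). None of these 9 genes was called between temperatures, and *Mir700*, at a mean of 0.714 CPM at 22°C, rests on few counts.

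Levels of the C1q chains moved with macrophage markers. Mean log2 CPM of the 3 C1q chains correlated with that of 12 macrophage markers at Pearson's r of 0.99 over 7 libraries at 22°C (Spearman's rho 0.964, r 0.975 without the 2 libraries farthest from the median) and at 0.914 over 6 libraries at 29°C (rho 0.886, r 0.752 without 2). The C1q chains also moved with 12 fibroblast markers, at r of 0.945 and 0.902, so the lists are not told apart by this measure. The difference in mean log2 CPM between C1q chains and macrophage markers was 1.78 ± 0.172 (SD, n = 7) at 22°C and 1.72 ± 0.184 (n = 6) at 29°C, a gap of 0.06 that is smaller than either SD. Mean log2 CPM of *C1ra*, *C1s1*, *C3* and *C4b* correlated with fibroblast markers at 0.714 (rho 0.786) at 22°C and 0.335 (rho 0.257) at 29°C, and the latter turned to -0.453 without 2 libraries. Relative to the fibroblast markers, these 4 genes were at 1.14 ± 0.262 and 1.28 ± 0.227 on the log2 scale. Over all 13 libraries, within temperature, r with the adipocyte markers was -0.165 to 0.293 for the 9 components, and *C4b* had r of 0.408 with macrophage and 0.251 with fibroblast markers.

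**Figure D5:**
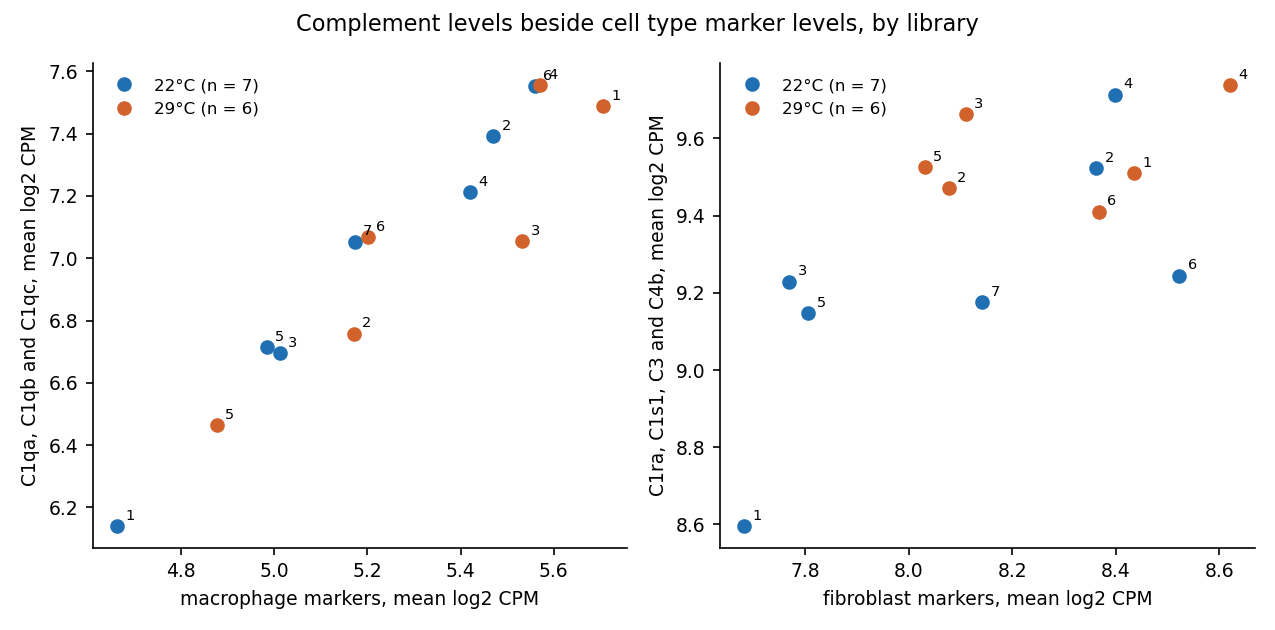
Mean log2 CPM of the C1q chains against that of 12 macrophage markers (left), and of *C1ra*, *C1s1*, *C3* and *C4b* against that of 12 fibroblast markers (right), for 7 libraries at 22°C (blue) and 6 at 29°C (orange), with replicate numbers. The left points follow a line at both temperatures (r of 0.99 and 0.914). On the right, r was 0.714 at 22°C and 0.335 at 29°C, where the points span a narrower range on both axes.

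The marker lists place these values in mixed tissue. The adipocyte markers of the labelled depot were abundant, with summed levels of 23214 to 34437 CPM at 22°C and 24807 to 38156 at 29°C, and 1 of 10, the hormone gene *Lep*, was called, lower at 22°C. Of the macrophage markers, 9 of 12 were lower and 0 were called (580 to 1035 against 603 to 1130 CPM), and of the fibroblast markers, again 9 of 12 were lower and 0 were called (4495 to 8854 against 7002 to 10244 CPM). Of 12 muscle markers all had a higher fitted value at 22°C and 0 were called, and their summed level was 726 to 79620 against 89.8 to 6317 CPM. Of 9 lymphocyte markers tested, 8 had a higher fitted value and 1, the T cell gene *Cd3e*, was called higher. Over all genes, 1.94% were called. The summed level of the list was 5.13 to 33.7 against 3.72 to 23.8 CPM, and *Cr2* in it is also a complement receptor gene. *Cd3e* had a mean of 1.04 CPM at 22°C and 0.297 at 29°C, where its lowest library, at 0.0842 CPM, was below the limit of 3 counts. The T cell genes *Cd3g* and *Cd2*, with log2 fold changes of 0.25 and -0.01, were not called, and *Cd3d* was not tested. The summed level of 6 endothelial markers was 386 to 563 against 403 to 592 CPM and that of 6 neutrophil markers 3.84 to 10.2 against 4.63 to 9.84 CPM, with 0 called in both. Of the hepatocyte list, 7 of 8 genes were found and 2 passed the filter, with a summed level of 30.7 to 72.5 against 43.7 to 82.2 CPM, nearly all of it *Alb*. The part of these cells in the differences of the components was not tested.

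The rest of the complement system was read from a list of 49 genes, of which 44 were found and 36 passed the filter. Of these 36, 15 had a higher and 21 a lower fitted value at 22°C, the median of log2 fold changes was -0.06, and 1 was called, where 1.94% of all genes were. That gene was *Cd59b*, a membrane inhibitor of the lytic complex, which was between 2.48 and 3.90 CPM, with a median of 2.84, at 22°C and between 3.68 and 5.26, with a median of 4.89, at 29°C. The highest library at 22°C lay just above the lowest at 29°C. It fell by 0.58 ± 0.14 on the log2 scale at 22°C (edgeR P-adj = 0.0856), and passed the test in 4 of 13 repeats that each left out a mouse, with edgeR P-adj of 0.0775 to 0.171. It did not pass without 22°C replicate 1, 5 or 7, without any single 29°C mouse, or without the 2 muscle-rich libraries (0.154). The call also ended without a filter on low counts, with the replicate block, with the muscle or total-cluster covariate, in the higher-total libraries only and at P-adj below 0.05. The related gene *Cd59a* was far more abundant (89.99 against 91.6 CPM in the median). Its log2 fold change was 0.00 (-0.44 with the total-count cluster as a covariate, without passing the test). The likeness of the 2 sequences was not measured here. How far reads of *Cd59a* enter the count of *Cd59b* is therefore uncertain, and so is that count.

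Of 9 other genes of initiation tested, 3 had higher and 6 lower fitted values and 0 were called. The most abundant were *C1rl*, a C1r-like protease gene (-0.13), *Fcna*, a ficolin that triggers the lectin pathway (0.13), and *Colec12*, a scavenger receptor collectin (0.18). *Mbl1*, *Mbl2*, *C8a* and *C8b* of the list are not analysed here. In the alternative pathway, *Cfd*, the gene of factor D, was by far the most abundant complement gene, with 12578 ± 2001 CPM (SD, n = 7) at 22°C and 13276 ± 1886 (n = 6) at 29°C, which is a log2 difference of -0.08 (edgeR P-adj = 0.812). Per kb of exon, *Cfd* was at 1.44e+04 CPM at 29°C. *Cfp*, the gene of the stabilizer properdin, had a log2 fold change of -0.15.

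With all 13 libraries, the largest fitted difference among named complement genes was in the terminal pathway, whose proteins form the lytic pore. *C7* was between 60.9 and 333 CPM, with a median of 124, at 22°C and between 30.5 and 144, with a median of 66.3, at 29°C. The fitted log2 difference was 1.05 ± 0.45 (SE) and its P-adj 0.236 with edgeR, so it did not pass the test. With the total-count cluster as a covariate the value was 0.029, and in the higher-total libraries only it was 0.025. *C6*, which joins the pore beside it, had a log2 fold change of 0.62, and *C8g* of -0.12. *Hc*, the gene of C5, was at 0.127 to 0.904 CPM in all libraries, near the limit of a count of 0, and *C9* did not pass the filter.

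None of the fluid-phase regulators and receptors tested was called. *Serping1*, the gene of the C1 inhibitor that inactivates C1r and C1s, was at 560.4 ± 170 CPM (SD, n = 7) at 22°C and 499 ± 102 (n = 6) at 29°C, with a log2 difference of 0.17. *Clu*, the gene of clusterin, had a log2 fold change of -0.24. *Vtn*, which encodes vitronectin and was chosen after its values were seen, had -0.48 with an edgeR P-adj of 0.154. DESeq2 called it among 1676 of 34358 genes with an unadjusted p. The membrane regulators *Cd55* and *Cr1l* had -0.08 and -0.10, with 1 of 7 in their list, *Cd59b*, called. Of 9 receptor genes 6 had higher and 3 lower fitted values, and 0 were called. *Itgam* and *Itgb2*, the chains of complement receptor 3, had log2 fold changes of 0.09 and -0.05, and *Cd93*, once described as a C1q receptor, of -0.07, with *Itgam* overlapping another gene over 68.7% of its exons.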

How the data were processed

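Libraries of gluteal WAT from 7 mice at 22°C and 6 at 29°C were grouped by the labelled temperature. The authors used STAR 2.7.5a for alignment and featureCounts for counting, and the raw counts of 34419 genes in 13 libraries were deposited. A second deposited table holds rlog (log2 scale) values that the authors made with DESeq2, and it is used here in an alternative. The submitters' processing notes name the GRCm39 build, and the strand setting is not given in the sources used here. Symbols were matched by gene identifier without version (34006 genes). Counts were fitted with edgeR 4.0.16 in R 4.3.3 (TMM, filterByExpr, quasi-likelihood F test, two-sided, no covariate), with Benjamini-Hochberg adjustment over 17779 genes and calls at P-adj below 0.1. TMM-scaled library sizes were used for CPM, with a prior count of 2 on the log2 scale. Confidence intervals use the SE (log2 fold change over the square root of F) and 11 degrees of freedom. Limits from 3 counts cover counting error only. Among 78 library pairs, chi-square per gene was at least 16.9, so each library was counted as a separate sample.

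The 9 components, the lists and the tests were chosen with earlier results of these data known. Genes named are the 9 components, other listed complement genes that were called, did not overlap or were among the 3 most abundant of their role, and the 3 genes most like each role group. *Vtn*, *Hc* and the close copies and overlapping genes of the components fall outside this rule. Some genes that the rule gives are left out. Alternatives were DESeq2 1.42.0, its size factors, no filter, a mean of at least 10 counts, robust dispersion, a replicate block, leaving out each mouse, muscle and total-cluster covariates, muscle genes removed, higher-total libraries, limma 3.58.1 on the deposited log2 values and P-adj below 0.05. Leaving out the 2 muscle-rich libraries and summing overlapping genes were added after seeing the data. The tests were checked on simulated counts.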

Additional observations from a re-analysis of the deposited data

Results flagged for a closer look

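Of 54 combinations of a named gene and a temperature, 6 had a library far from the others of its group (Dixon's test at its 95% critical value), a rule that chance meets in about 1 in 20 groups. *C1ra* was at 198 CPM in 29°C replicate 4, with the nearest library at 157. *C3* was at 2615 CPM in 22°C replicate 4, with the nearest at 1664. *C1rl* was at 21.5 CPM in 29°C replicate 6 (nearest 18.7), and *Serping1* at 701 CPM in 29°C replicate 4 (nearest 496). *Fcna* was at 58.4 CPM in 22°C replicate 6 (nearest 35.5), and *Colec12* at 51.9 CPM in 22°C replicate 4 (nearest 31.6).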

How the results depend on the processing

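No component was called under any setting except DESeq2, which called 1 (*C1s1*), and their median log2 fold change stayed between -0.31 and -0.12. Over all genes, 345 of 17779 were called in edgeR. In DESeq2, 1676 of 34358 genes with an unadjusted p were called (914 higher and 762 lower), and the number adjusted over was not recorded. Calls numbered 40 at P-adj below 0.05, 42 without a filter and 47 with the muscle covariate. They numbered 4 with the total-cluster covariate, 8 in higher-total libraries only and 32 to 652 with each mouse left out. The cause of these differences in count was not tested. Of the other complement genes, 2 were called by DESeq2 and 0 at P-adj below 0.05, without a filter, with the replicate block, with either covariate, in higher-total libraries only and without the 2 muscle-rich libraries, and 0 to 1 with each mouse left out. With the replicate block 214 genes were called and 0 components, and deviations of same-numbered libraries correlated at 0.348 to 0.513 for 5 of 6 pairs and at 0.0508 for replicate 5. The labels name no shared litter or batch, and the libraries were treated as unpaired. Libraries with different numbers were not correlated in this way, so these values do not decide whether same-numbered libraries are paired.

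Log2 fold changes near 0 reversed. With the total-cluster covariate and in higher-total libraries only, they were 0.14 and 0.13 for *C1qa*, 0.16 and 0.15 for *C1qb*, 0.13 and 0.12 for *Cfp*, 0.026 and 0.017 for *C8g*, 0.012 and 0.0040 for *Cd55*, 0.12 and 0.11 for *Itgb2*, and 0.010 and 0.0036 for *Cd93*. Without the 2 muscle-rich libraries they were 0.0035 for *C1qa*, 0.042 for *Cfd* and 0.11 for *Cd59a*. For *C1qc* they were -0.0032 with DESeq2, -0.0032 with its size factors, -0.0021 without a filter, -0.044 with the replicate block and -0.020 on the deposited log2 values. *Cd59a* was at 0.058 with the replicate block and 0.11 with the muscle covariate, under which *Itgam* was at -0.028. With each mouse left out the range was -0.23 to 9.44e-05 for *C1qb*, -0.11 to 0.12 for *C1qc*, -0.096 to 0.23 for *Fcna*, -0.019 to 0.26 for *Colec12*, -0.14 to 0.0012 for *Cd55*, -0.073 to 0.074 for *Cd59a*, -0.018 to 0.24 for *Itgam* and -0.17 to 0.037 for *Itgb2*. Depth limits *Hc* and *Mir700*, which rest on few counts.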
